A study of Mus musculus with 5 samples.

Results

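The genes of capillary fatty acid uptake and caveolae were examined in endothelial cells of the mouse thymus before and after irradiation. The 10 genes were Cd36, Fabp4, Fabp5, Gpihbp1, Lpl, Pparg, Cav1, Cav2, Plvap and Aqp1. Members were all probe sets that the platform annotation assigned to 1 of these symbols. This gave 17 probe sets of 9 genes, out of 20380 probe sets naming 12393 genes. Gpihbp1, which holds lipoprotein lipase on the capillary wall, was named by no probe set with 1 symbol and is not analysed here. The untreated group (day 0) had 3 arrays and the irradiated group (day 4) had 2, all from female C57BL/6J mice 6 to 8 weeks old. The irradiated mice had received 550 cGy of sublethal total body irradiation in a cesium irradiator, without hematopoietic rescue, 4 days earlier. Each array held RNA pooled from thymic endothelial cells of several mice, sorted as CD45- EpCAM- VE-Cad+ after CD45 depletion. The cell type label of the day 4 arrays reads CD45- thymic stromal cells and that of the day 0 arrays thymic endothelial cells, although the protocol gives 1 sort for both. All 14 endothelial identity markers listed were measured, that is, above a log2 value of 4 on at least 2 arrays. Their mean log2 value was 10.08, 10.10 and 10.22 at day 0 and 9.95 and 10.23 at day 4. Cdh5, which encodes the VE-cadherin of the sort, stood at 11.57, 11.51 and 11.64 at day 0 and at 11.38 and 11.40 at day 4. Bulk arrays cannot tell fewer cells of a type from less RNA per cell.

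Capillary endothelium passes fatty acids from the blood to the tissue behind it. Lipoprotein lipase, carried to the vessel lumen by GPIHBP1, frees fatty acids from circulating triglyceride, CD36 takes them up at the cell surface, and the binding proteins FABP4 and FABP5 carry them through the cytosol. PPARG is a nuclear receptor that binds fatty acids and regulates genes of lipid uptake and storage, Cd36, Fabp4 and Lpl among its known targets. Caveolae are flask-shaped pits of the plasma membrane built by caveolins and cavins, in which caveolin-2 depends on caveolin-1 to reach the surface. PLVAP forms the diaphragms that close caveolae and fenestrae, and AQP1 is the water channel of many capillaries.

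Promoter windows, 250 bases before to 50 bases after an annotated start, were found in the RefSeq table (GRCm38.p6) for 5 of the 10 genes, in 8 windows. The windows of Cd36, Cav1 and Cav2 are shown because Cd36 and Cav1 lay near the top of the array scale in every sample, and because Cav2 is the gene next to Cav1 with 0 protein-coding genes between them. Capitals mark the letters AGGTCA, an element recognised by nuclear receptors such as PPARG, and GGGCGG, the GC box, on either strand (TGACCT and CCGCCC in the printed strand).
Cd36, chr5:17835847-17836146, minus strand: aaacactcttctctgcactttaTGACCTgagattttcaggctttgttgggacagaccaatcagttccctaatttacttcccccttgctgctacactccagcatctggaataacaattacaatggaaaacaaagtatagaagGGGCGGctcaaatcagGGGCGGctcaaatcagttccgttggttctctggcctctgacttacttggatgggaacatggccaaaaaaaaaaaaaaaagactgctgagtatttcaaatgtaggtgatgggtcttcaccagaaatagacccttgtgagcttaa
Cav1, first of 2 windows, chr6:17306085-17306384, plus strand: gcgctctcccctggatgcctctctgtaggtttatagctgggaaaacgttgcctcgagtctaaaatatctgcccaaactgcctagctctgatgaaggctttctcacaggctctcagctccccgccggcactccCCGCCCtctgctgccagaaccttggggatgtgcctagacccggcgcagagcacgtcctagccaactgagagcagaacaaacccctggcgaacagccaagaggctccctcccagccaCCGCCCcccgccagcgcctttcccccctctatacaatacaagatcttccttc
Cav2, chr6:17280935-17281234, plus strand: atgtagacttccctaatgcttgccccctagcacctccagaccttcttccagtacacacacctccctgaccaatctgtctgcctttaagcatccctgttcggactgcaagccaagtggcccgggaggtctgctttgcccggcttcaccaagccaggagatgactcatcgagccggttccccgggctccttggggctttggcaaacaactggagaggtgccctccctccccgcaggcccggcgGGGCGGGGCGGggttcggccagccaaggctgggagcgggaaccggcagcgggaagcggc
The Cd36 window held 1 AGGTCA, 228 bases before the start, and 2 GC boxes, 109 and 93 bases before it. The Cav1 window held 2 GC boxes, 118 and 2 bases before its start, and the Cav2 window 2 overlapping ones, 9 and 4 bases before its start. Over all 32851 windows of the table, AGGTCA was present in 16.3% and GGGCGG in 35.7%. Among the member windows, AGGTCA was present in 3 of 8 and GGGCGG in 6 of 8. The direct repeat that PPARG binds with its partner RXR, 2 copies of AGGTCA with 1 base between, was in 0 of the 8 member windows and in 0.04% of all windows, on either strand. These are matches of letters only, and say nothing of binding.

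None of the 9 measured genes passed the limma test at day 4 (adjusted p under 0.05 over 8940 genes), and none of the 17 probe sets passed it in the fit of all 15065 probe sets. In these fits 2.85% of all genes passed (1.5% higher and 1.35% lower at day 4), as did 1.39% of all probe sets. At an unadjusted p under 0.05 there were 2 of the 9 genes, Lpl higher and Fabp5 lower, against 21.2% of all genes, and 4 of the 17 probe sets, those same 2 genes' pairs, against 19.4% of all probe sets. The day 4 arrays lay apart from all day 0 arrays for 4 of the 9 genes, which were Lpl above and Cd36, Fabp5 and Cav2 below, and for 41.1% of all genes tested (18% above and 23% below). Among the 17 probe sets they lay apart for 8, 3 above and 5 below, and among all probe sets for 39.6% (18.9% above and 20.7% below). The median log2 change of the 9 genes, day 4 minus day 0, was -0.085, and that of all genes was -0.023. With 3 residual degrees of freedom, a p above the threshold does not show that a gene did not differ, so the 95% interval of each change is given.

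**Figure D1:**
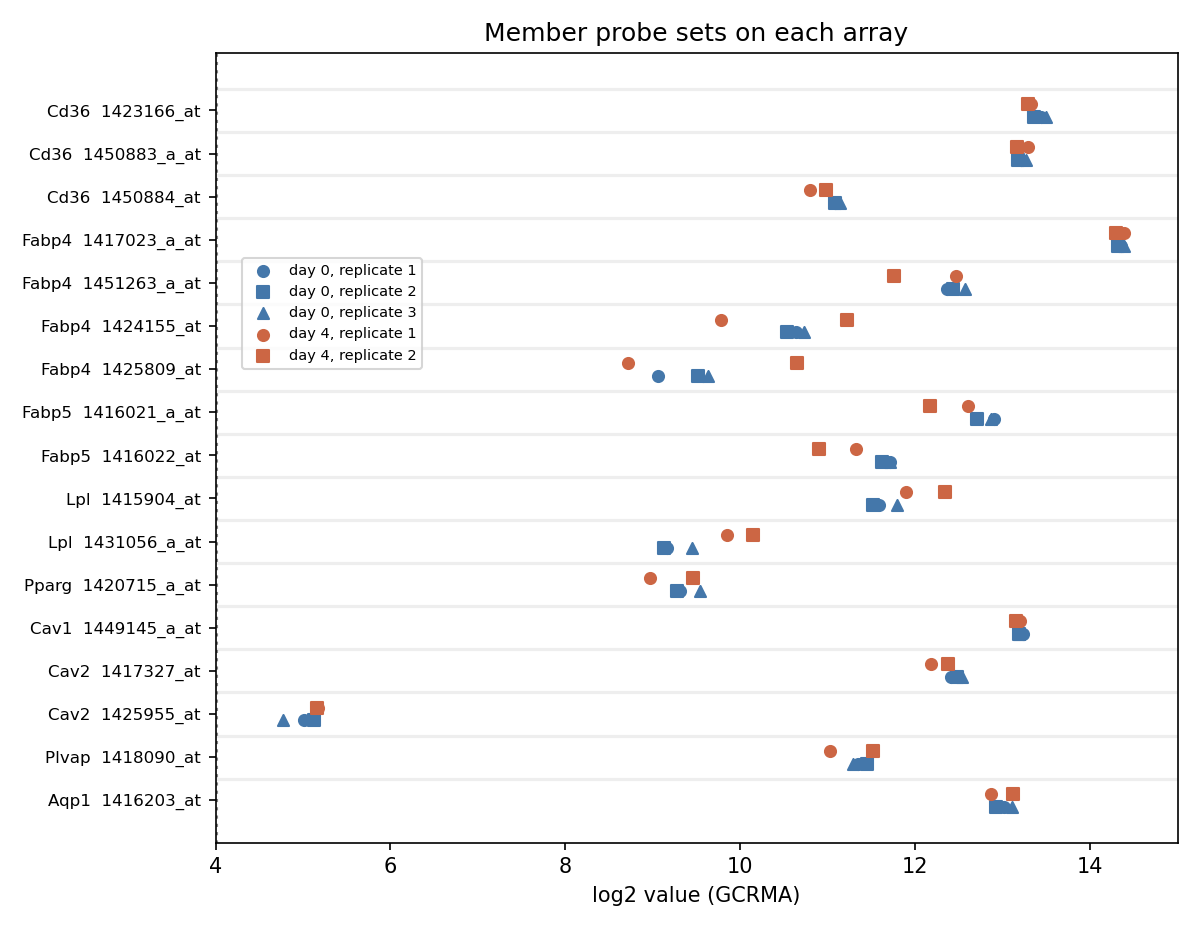
The log2 value of each of the 17 member probe sets (rows) on each array (points, day 0 in blue and day 4 in orange, the symbol giving the replicate). Most probe sets lie above 10, the highest is the Fabp4 probe set 1417023_a_at near 14.35, and the 2 day 4 arrays part widely on 3 other Fabp4 probe sets.

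Several members sat at the top of the measured range. The Fabp4 probe set 1417023_a_at gave the highest value of all probe sets on each of the 5 arrays, between 14.29 and 14.38, controls included. The Cd36 probe set 1423166_at ranked 15 to 22 across the arrays, that of Cav1 23 to 30 and that of Aqp1 34 to 58, counted from the highest non-control probe set. On every array 8 of the 17 member probe sets lay in the top 1% of values. Such ranks place a probe set on the scale and do not compare the amounts of different transcripts, since probe sets differ in how strongly they bind. Changes were small at this end of the scale for all genes. Of the 44 tested probe sets with a mean above 13, 0 passed the limma test and 1 had an unadjusted p under 0.05. Their median absolute log2 change was 0.058 and their largest 0.38. For the 775 probe sets with a mean above 10 and up to 12, the median was 0.15, and 14 passed. The table carried no saturation flags, so whether a value was capped was not tested. The changes of Fabp4, Cd36, Cav1 and Aqp1, whose 5 probe sets are among the 44, are read within that limit.

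Cd36, the fatty acid translocase of the cell surface, was measured by 3 probe sets. On 1423166_at it read 13.44, 13.36 and 13.49 at day 0 and 13.32 and 13.30 at day 4. Both day 4 values lay just below all day 0 values. The log2 change was -0.12 ± 0.092 (SE), with a 95% interval of -0.35 to 0.10 and a limma adjusted p of 0.479. On 1450883_a_at, also near the top of the scale, it read 13.21, 13.17 and 13.27 against 13.29 and 13.16, and the groups overlapped. The lowest of the 3, 1450884_at, read 11.09, 11.09 and 11.14 at day 0 and 10.80 and 10.98 at day 4, again with both day 4 arrays lower. Its change was -0.21 (95% interval -0.46 to 0.029, adjusted p = 0.299 in the fit of all probe sets). Platelets and red cell precursors also carry CD36, so the lists of their markers were read on the same arrays. Of the 6 measured platelet markers of 9 listed, 1 was higher by limma, Clec1b, and 0 lower (1.5% and 1.35% of all genes). The 3 changes above 0 and the 3 below 0 gave a median of -0.046, with a summed level on a log2 scale of 8.52 to 8.78 at day 0 and 9.08 on each day 4 array. Of the 12 erythroid markers 2 were measured, and Alas2 was lower by limma, as were 1.35% of all genes. Alas2 read 3.58 and 3.56 at day 4, under the level filter of 4, which it passed through the day 0 arrays alone. The mean level of the 2 markers was 5.53 to 5.95 at day 0 and 3.95 and 4.13 at day 4. The part of these cells in the Cd36 values was not tested. Nor was that of macrophages and adipocytes, whose marker lists, described with Lpl below, had median changes of 1.61 and 1.17. The macrophage median includes genes that passed the level filter through day 4 alone.

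Fabp4, the fatty acid binding protein shared by capillary endothelium, adipocytes and macrophages, was measured by 4 probe sets. On 1417023_a_at it read 14.35, 14.32 and 14.38 at day 0 and 14.38 and 14.29 at day 4. The groups overlapped, and the change was -0.013 (95% interval -0.23 to 0.21, limma adjusted p = 0.949). The other probe sets did not follow that picture, because the 2 day 4 arrays went opposite ways on them. On 1424155_at, Fabp4 read 10.64, 10.54 and 10.73 at day 0, then 9.78 on day 4 replicate 1 and 11.22 on day 4 replicate 2. On 1425809_at it read 9.05, 9.52 and 9.63 at day 0, then 8.72 and 10.64. Replicate 1 was thus below and replicate 2 above every day 0 array on these 2 probe sets. On 1451263_a_at the order was reversed. It read 12.37, 12.43 and 12.57 at day 0, 12.47 on day 4 replicate 1 and 11.76 on day 4 replicate 2, which lay below all others. The log2 changes of these 3 probe sets were -0.14 (95% interval -1.09 to 0.81), 0.28 (-1.03 to 1.59) and -0.34 (-0.86 to 0.18), and none passed. Their sign rested on single arrays. Without day 4 replicate 1 the change of 1424155_at was 0.58, without day 4 replicate 2 that of 1425809_at was -0.69, and without day 4 replicate 2 that of 1451263_a_at was 0.012.

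From day 4 replicate 1 to replicate 2 the 4 Fabp4 probe sets moved by -0.092, -0.71, 1.44 and 1.93 on the log2 scale, a range of 2.64. Among the 3250 genes with at least 2 tested probe sets, this was the widest range, the next being 1.82 and the median 0.25. Between pairs of day 0 arrays the range for Fabp4 was 0.57, 0.55 and 0.12, at places 259, 445 and 2118 of the same 3250 genes. For the other members with several probe sets the day 4 range was 0.30 for Cd36, 0.19 for Cav2, 0.15 for Lpl and 0.019 for Fabp5. This ranking was computed after the Fabp4 values had been seen, and it describes these 2 arrays. A range can only widen as probe sets are added, and the ranking was not adjusted for their number, which was 4 for Fabp4. The sources used here give no position of these probe sets along the transcript. Adipocyte markers differed between the same 2 arrays, with a mean level of 8.33 on replicate 1 and 6.72 on replicate 2, while macrophage markers stood at 7.71 and 7.63. The array's actin control probes, read at the 3′ end minus the 5′ end, gave 1.35 and 1.39 on these arrays (1.43 to 1.65 at day 0), and the Gapdh ones 0.817 and 0.828 (0.905 to 0.958 at day 0). The part of either in the Fabp4 values was not tested.

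**Figure D2:**
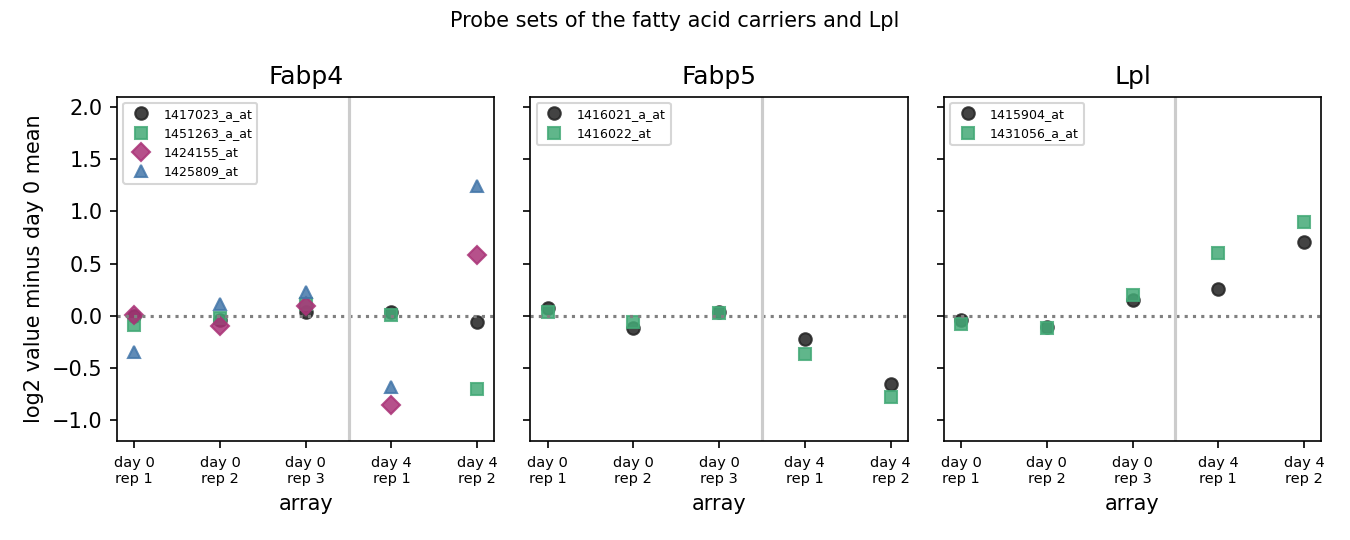
The log2 value minus the day 0 mean (vertical axis) on each array (horizontal axis) for every probe set of Fabp4, Fabp5 and Lpl. The probe sets of Fabp5 go down together and those of Lpl up together on both day 4 arrays, while those of Fabp4 spread from -0.70 to 1.24 on day 4 replicate 2.

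Fabp5, the second fatty acid binding protein, lies near Fabp4 in the genome, with 2 protein-coding genes (Pmp2 and Fabp9) between them in the RefSeq order. On 1416021_a_at it read 12.91, 12.71 and 12.87 at day 0 and 12.61 and 12.17 at day 4. On 1416022_at it read 11.71, 11.62 and 11.71 at day 0 and 11.32 and 10.90 at day 4. Both probe sets had both day 4 arrays below all day 0 arrays, and day 4 replicate 2 was the lowest. The change on the first was -0.44 ± 0.15 (SE), or 0.738-fold, with a 95% interval of -0.80 to -0.074 and a limma adjusted p of 0.174. On the second it was -0.57 (-0.92 to -0.22), with an adjusted p of 0.119 in the fit of all probe sets. Without day 4 replicate 2 the change of the gene was -0.22, and without day 4 replicate 1 it was -0.66. Over all alternatives its adjusted p lay between 0.118 and 0.366. Fabp5 is also abundant in epithelium, and the thymic epithelial markers were low on the same array. Of 12 listed 10 were measured and 0 passed the test (5 at an unadjusted limma p under 0.05, against 21.2% of all genes). Their summed level, on which the most abundant markers weigh most, was 12.31, 11.54 and 11.51 at day 0, and 11.73 and 10.41 at day 4. No epithelial marker measured was under a log2 value of 4 on all day 0 arrays, and their part in the Fabp5 values was not tested.

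Lpl, which encodes lipoprotein lipase, was higher on both day 4 arrays with both of its probe sets. On 1415904_at it read 11.59, 11.52 and 11.79 at day 0 and 11.89 and 12.34 at day 4. On 1431056_a_at it read 9.17, 9.13 and 9.45 at day 0 and 9.85 and 10.14 at day 4. The groups did not overlap, and day 4 replicate 2 was the highest on each. The change of the gene was 0.48 ± 0.16 (SE), or 1.40-fold, with a 95% interval of 0.098 to 0.87, and it did not pass (limma adjusted p = 0.161). On the second probe set it was 0.75 (0.39 to 1.11, adjusted p = 0.0791 in the fit of all probe sets). At the threshold of 0.05 it passed in 1 alternative setting, limma with an intensity trend and robust fitting (adjusted p = 0.0484, against a range of 0.0484 to 0.219 over all settings). Leaving out day 4 replicate 2 gave 0.26 for the gene, and leaving out day 4 replicate 1 gave 0.71. Among its known protein partners, Angptl4, a secreted inhibitor of the lipase, read 10.30, 10.03 and 10.03 against 10.22 and 10.60 (change 0.29, adjusted p = 0.324). Lmf1, needed for the lipase to mature, had a change of 0.072 (adjusted p = 0.782), and the related endothelial lipase gene Lipg one of 0.090 (adjusted p = 0.669).

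Macrophages and adipocytes make lipoprotein lipase. Macrophage markers were higher on both day 4 arrays, and adipocyte markers on day 4 replicate 1. All 14 listed macrophage markers were measured. By limma over all genes 4 were higher and 0 lower, against 1.5% and 1.35% of all genes. The largest changes were those of Cd163 (2.89) and Cd5l (2.74). Cd163 and Vsig4, both among the 4, were under a log2 value of 4 on all day 0 arrays. Both passed the level filter through day 4 alone. A further gene of the 4 read 4.42, 3.34 and 3.98 at day 0, so it too passed only with the day 4 arrays. The summed level of the 14 markers was 11.30, 10.32 and 10.63 at day 0 and 12.45 and 12.12 at day 4. Of the 12 adipocyte markers 9 were measured, 0 passed the limma test and 3 had an unadjusted p under 0.05 (21.2% of all genes). Their summed level was 10.56, 10.69 and 10.90 at day 0, 12.31 on day 4 replicate 1 and 11.12 on day 4 replicate 2. Adipoq, the hormone of mature fat cells, read 6.28, 7.68 and 6.95 at day 0 and 9.78 and 7.12 at day 4. The adipocyte markers were highest on day 4 replicate 1, and Lpl was highest on day 4 replicate 2. The part of either cell type in the Lpl values was not tested.

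**Figure D3:**
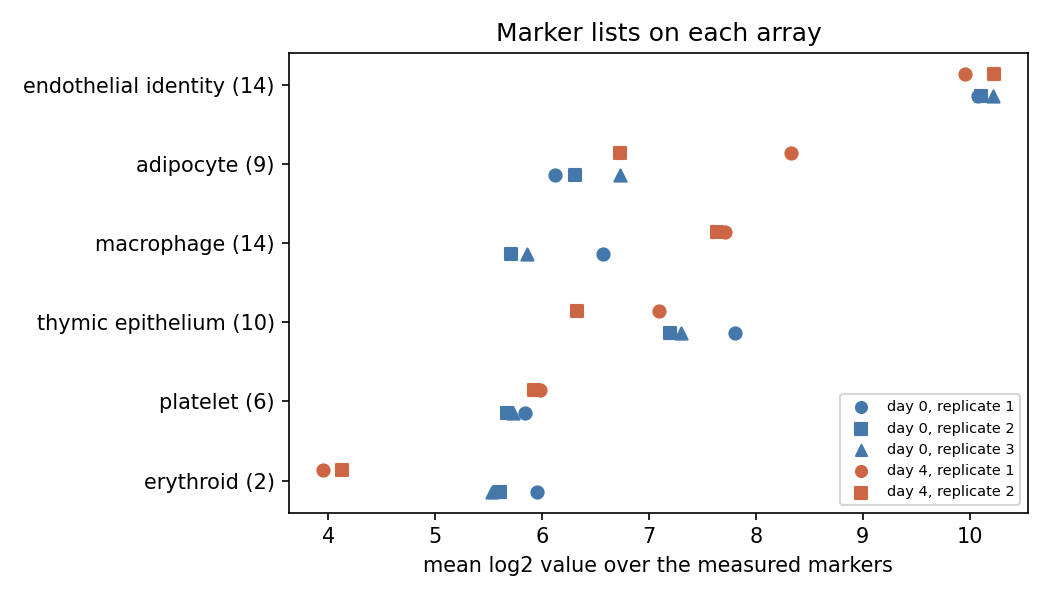
The mean log2 value of the measured markers of each listed cell type (rows, number measured in brackets) on each array (points). Macrophage markers are higher on both day 4 arrays, adipocyte markers on day 4 replicate 1, and endothelial markers lie between 9.95 and 10.23 on all arrays.

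Pparg, the nuclear receptor, read 9.31, 9.28 and 9.55 at day 0 and 8.97 and 9.46 at day 4 on its 1 probe set. The groups overlapped, with day 4 replicate 1 the lowest of the 5 arrays. The change was -0.17 (95% interval -0.58 to 0.25, limma adjusted p = 0.612), and it was 0.082 without day 4 replicate 1. Of its relatives Ppara and Ppard, no probe set was above a log2 value of 4 on 2 arrays. Its partner gene Rxra had a change of 0.062 (adjusted p = 0.739).

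Cav1 encodes the main structural protein of caveolae. It read 13.23, 13.19 and 13.18 at day 0 and 13.20 and 13.16 at day 4, a range of 0.074, at a level where the values of all probe sets varied little. The change was -0.023 ± 0.087 (SE), with a 95% interval of -0.23 to 0.19 and a limma adjusted p of 0.904. Cav2 read 12.41, 12.48 and 12.53 at day 0 and 12.19 and 12.37 at day 4 on 1417327_at. Both day 4 arrays were lower, and the change of -0.20 ± 0.10 (SE) did not pass (95% interval -0.45 to 0.051, adjusted p = 0.323). It was -0.10 without day 4 replicate 1. Its second probe set, 1425955_at, lay far lower on the scale and went the other way. It read 5.01, 5.13 and 4.77 at day 0 and 5.17 and 5.16 at day 4, a change of 0.20 (95% interval -0.12 to 0.51). The mean of both probe sets had a change of -0.00079. The neighbours Cav1 and Cav2 therefore both had intervals that include 0.

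Plvap, the diaphragm protein, read 11.35, 11.45 and 11.29 at day 0 and 11.03 and 11.52 at day 4. The day 4 arrays lay on either side of the day 0 arrays, and the change was -0.085 (95% interval -0.47 to 0.30, limma adjusted p = 0.789). It was 0.16 without day 4 replicate 1 and -0.33 without day 4 replicate 2. Aqp1, the water channel, read 13.02, 12.93 and 13.11 at day 0 and 12.87 and 13.12 at day 4, likewise on either side. Its change was -0.025 (-0.31 to 0.26, adjusted p = 0.924).

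**Figure D4:**
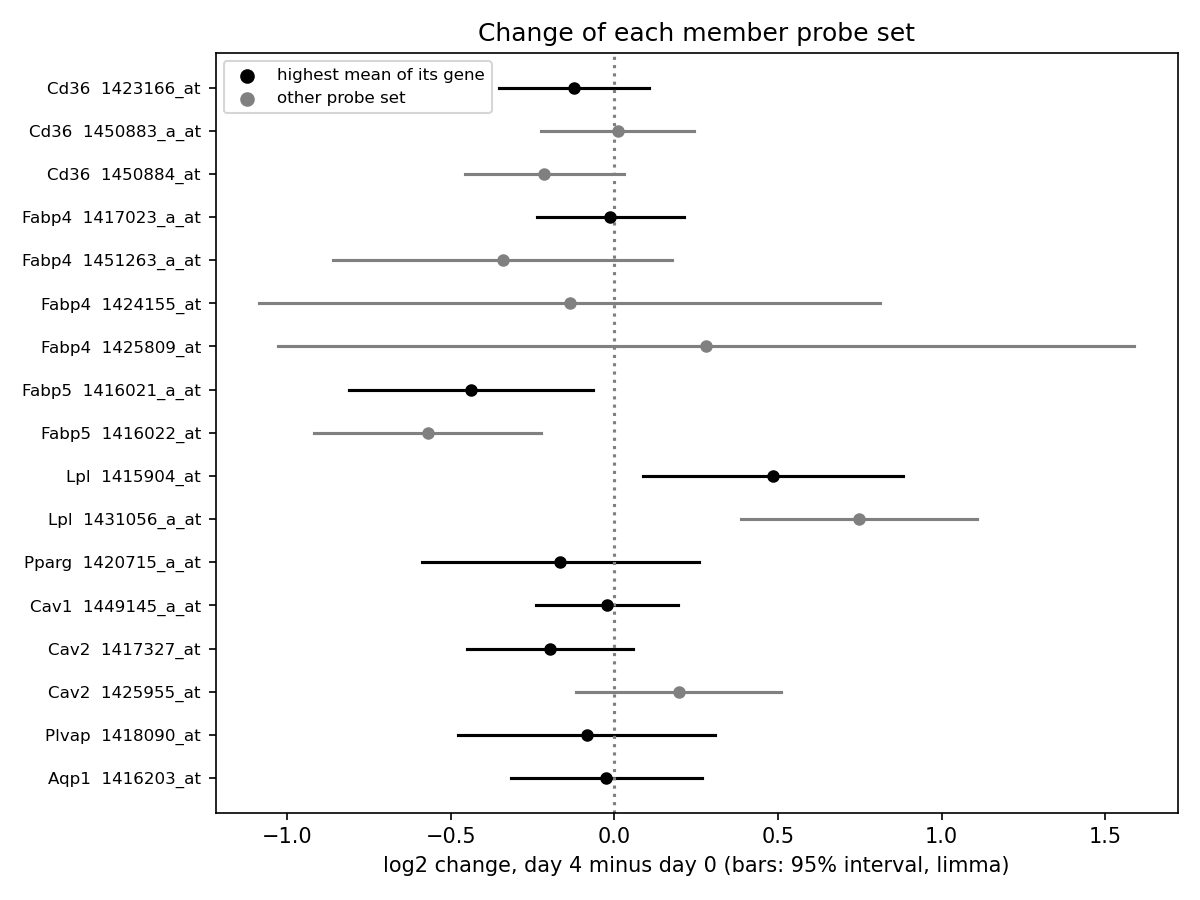
The log2 change, day 4 minus day 0, of each member probe set (points) with its 95% interval from limma (bars) in the fit of all probe sets, black for the probe set with the highest mean of its gene and grey for others. The intervals of Fabp5 lie below 0 and those of Lpl above 0 on both probe sets, and all others include 0.

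Other genes of these pathways were read from lists that hold none of the members. Among 13 measured genes of fatty acid uptake and activation, 0 passed the limma test in either direction. An unadjusted p under 0.05 was found for 2 of the 13, against 21.2% of all genes. The median change of the 13 was 0.013. The transporter genes Slc27a3 and Slc27a4 had changes of 0.020 and -0.00035 (adjusted p = 0.927 and 0.999), the sign of Slc27a3 turning with the normalization and with arrays left out, and that of Slc27a4 with arrays left out. Scarb1, a scavenger receptor of the same family as CD36, read 11.35, 11.41 and 11.27 against 11.05 and 11.14 (change -0.25, adjusted p = 0.202). Fabp3, the binding protein of heart and muscle, read 5.43, 5.84 and 5.71 against 6.82 and 5.20. It was highest on day 4 replicate 1 and lowest on day 4 replicate 2, and without replicate 2 it passed (1.16, limma adjusted p = 0.0490, against a range of 0.0490 to 0.854 over all settings). Acsl1 was named by no probe set with 1 symbol and is not analysed here. Of 17 genes around lipoprotein lipase and lipolysis 0 passed (4 at an unadjusted p under 0.05), with a median of 0.072 that was -0.018 without day 4 replicate 2. Among the 4 were genes under a log2 value of 4 on both day 4 arrays, which passed the level filter through day 0 alone.

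The PPAR partners and targets had a median change of 0.30 over 16 measured genes, and 11 of the 16 changes were above 0. Among the 11 was 1 gene under a log2 value of 4 on all day 0 arrays, which passed the level filter through day 4 alone. Of the 16 genes 0 passed the limma test. An unadjusted p under 0.05 was found for 6, that gene included, against 21.2% of all genes. The most even of them was Plin2, which coats lipid droplets. It read 10.22, 10.16 and 10.21 at day 0 and 10.67 and 10.64 at day 4, a change of 0.46 ± 0.087 (SE) that missed the threshold (adjusted p = 0.0546). Pdk4, which diverts the cell from glucose to fat oxidation, read 6.82, 7.03 and 6.93 against 8.68 and 7.43 (adjusted p = 0.134). Cebpa, a transcription factor of fat cells and myeloid cells, read 6.58, 6.54 and 6.49 against 7.27 and 6.91 (adjusted p = 0.0812). All of Plin2, Pdk4 and Cebpa were higher on both day 4 arrays, and all were highest on replicate 1, Plin2 by little. The adipocyte markers were also highest on replicate 1. Not every gene of the list was so, as Angptl4 read 10.22 on day 4 replicate 1 and 10.60 on day 4 replicate 2. Of the 14 macrophage markers, 13 lay above all day 0 arrays on both day 4 arrays, as did 18% of all genes tested. The 13 include Cd163 and Vsig4, which were under a log2 value of 4 on all day 0 arrays. Both passed the level filter through day 4 alone. The part of either cell type in the values of this list was not tested. Plin2, Pdk4 and Cebpa were singled out after their values were seen. Without day 4 replicate 2 the list had a median of 0.19, and without day 4 replicate 1 its median was 0.16. Of 19 fatty acid oxidation genes 0 passed (1 at an unadjusted p under 0.05), with a median of 0.078. That median was 0.27 without day 4 replicate 2 and -0.074 without day 4 replicate 1.

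Genes of the caveolar coat and neck gave no call either. Of 12 measured, 0 passed the limma test and 1 had an unadjusted p under 0.05, against 21.2% of all genes. Their median was -0.069, and 0.043 without day 4 replicate 1. Cavin1, the cavin that caveolae require, read 10.97, 10.85 and 11.08 at day 0 and 10.81 and 11.03 at day 4 (change -0.044, adjusted p = 0.860). Cavin2 had a change of -0.16 (adjusted p = 0.425) and Cavin3 one of -0.15 (adjusted p = 0.535). Ehd2, the ATPase at the caveolar neck, read 9.37, 9.50 and 9.21 against 8.61 and 9.29 (change -0.41, adjusted p = 0.320), low on day 4 replicate 1 alone. The caveolin of muscle, Cav3, did not reach the level filter, and Pacsin2 was named by no probe set with 1 symbol.

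Among 15 other capillary genes, Aplnr, the apelin receptor gene, was lower (change -0.56, limma adjusted p = 0.0485) and 0 were higher. By the same test 1.35% of all genes were lower and 1.5% higher. The median change of the 15 was -0.18. Aplnr read 11.99, 11.99 and 11.86 at day 0 and 11.31 and 11.47 at day 4. The list's count of called genes was 0 under 8 of 14 alternative settings, among them the omission of any 1 day 0 array or of day 4 replicate 1. Day 4 arrays lay below all day 0 arrays for 8 of the 15, and for 23% of all genes tested. The list median was -0.088 without day 4 replicate 1 and -0.30 without day 4 replicate 2. Meox2 and Tcf15, which encode a transcription factor pair known to drive Cd36 and Lpl in capillaries of heart and muscle, were both lower on both day 4 arrays. Tcf15 read 10.22, 9.73 and 10.05 against 9.36 and 9.51, a change of -0.56 ± 0.16 (SE) with an adjusted p of 0.120. Meox2 read 9.73, 9.98 and 10.16 against 9.65 and 9.53, a change of -0.37 ± 0.15 (SE) with an adjusted p of 0.222. Neither passed. Aqp7, which carries glycerol and water, was the only other aquaporin of 10 listed that was tested. It read 9.14, 9.24 and 9.48 against 8.81 and 8.54, below all day 0 arrays on both day 4 arrays (change -0.62, adjusted p = 0.0804). It too was named after its values were seen.

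**Figure D5:**
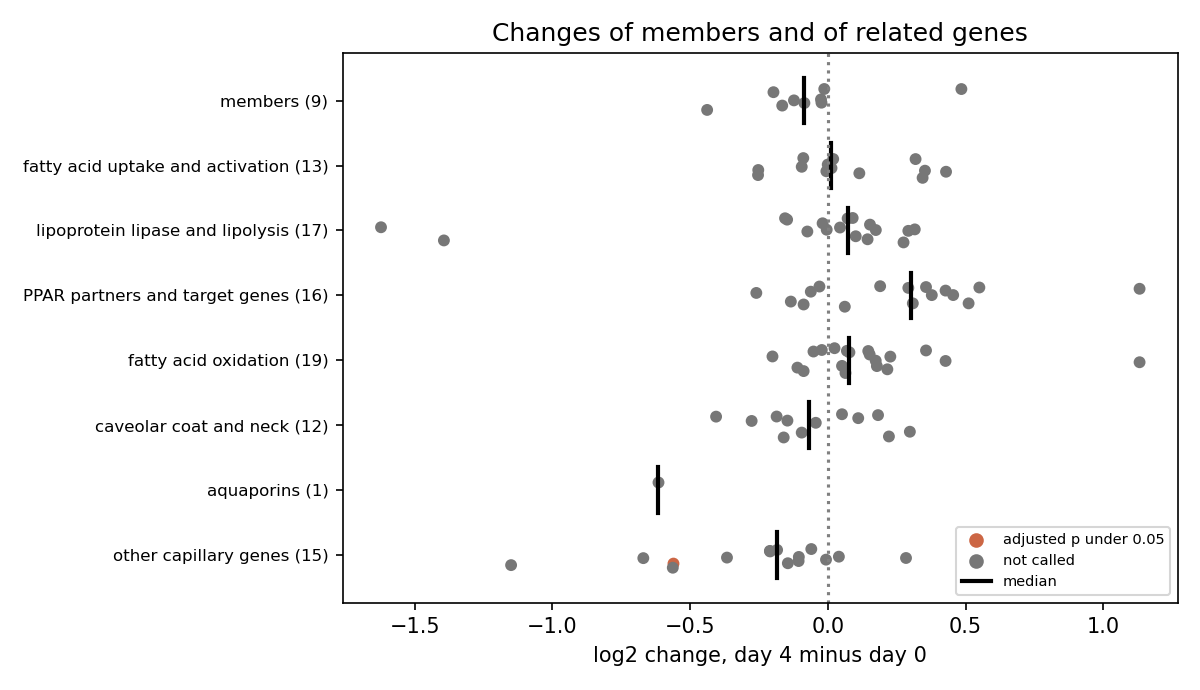
The log2 change, day 4 minus day 0, of the member genes and of the genes of each related list (points, number measured in brackets), with the list median as a black bar and called genes in orange. Aplnr, in the capillary list, is the 1 orange point, and the PPAR list has the highest median at 0.30.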

How the data were processed

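The authors deposited 1 log2 value per probe set and array, made with GCRMA (named in the submitters' processing notes, with no version, and without saying which arrays went in together). GCRMA hides a change shared by most genes, and the table carries no detection calls. The scale was read from the values. Symbols came from the platform annotation and were checked through Entrez identifiers (20351 of 20380 matched). Probe sets above a log2 value of 4 on at least 2 arrays were tested (15065, without 64 controls), or, for genes, the probe set with the highest mean of each gene (8940 genes). Both used limma 3.58.1 under R 4.3.3 (functions lmFit and eBayes, two-sided, no covariates) at a Benjamini-Hochberg adjusted p under 0.05. The fit was tested on simulated data. Values of a gene come from the gene fit and those of its other probe sets from the fit of all probe sets. Summed levels are log2 of the summed linear values. Whether replicate pools are independent is not stated, so p-values measure the spread between these arrays, which may be technical. The number of arrays limits the precision. Members and lists were chosen with earlier results of these data known. Named were all members, from each list the 2 called genes that rose and the 2 that fell most, and a fixed set of partner genes. Plin2, Pdk4, Cebpa, Aqp7 and Vsig4 fall outside this rule and were named after their values were seen. Some genes are in 2 lists, such as Pdk4 (PPAR targets and oxidation) and Kdr and Emcn (capillary and endothelial). Other listed cell types (thymocytes, pericytes, fibroblasts, lymphatic endothelium) had 0 higher calls, and 5 lower among 8 thymocyte markers (Rag1 and Satb1 the most) and 0 in the others. Over all genes 1.35% were lower. Some of the 5, Rag1 among them, were under a log2 value of 4 on both day 4 arrays and passed the level filter through day 0 alone. The alternatives were other normalizations, level filters, thresholds, array weights, an intensity trend with robust fitting, a replicate block, averaging over a gene's probe sets, the fit of every probe set, and each array left out. Plots used Python 3.11.15 and matplotlib 3.10.9.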

Additional observations from a re-analysis of the deposited data

How the results depend on the processing

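The count of member genes called was 0 under all 15 alternatives. That of member probe sets, recomputed under 13 of them, was 0 except for 1 (the Lpl probe set 1431056_a_at) at an adjusted p under 0.1 and 1 with an intensity trend and robust fitting. Quantile normalization could not have called Fabp4, because it gives the highest probe set of every array the same value. The change of Cd36, Fabp5, Lpl, Cav1 and Cav2 had 1 sign under every alternative run, although that of Cav2 was -0.00079 with the mean of its probe sets (adjusted p = 0.996, range over alternatives 0.157 to 0.996). Aqp1 turned to 0.021 after quantile normalization and to 0.021 with the replicate block, and lay between -0.15 and 0.10 when single arrays were left out. Fabp4 was 0.0032 with the replicate block and -0.059 to 0.033 without single arrays. So left out, Pparg lay between -0.41 and 0.082 and Plvap between -0.33 and 0.16. The Cd36 probe set 1450883_a_at was -0.016 after median centring and -0.053 to 0.071 without single arrays, and the Fabp4 probe sets were -0.86 to 0.58 (1424155_at), -0.69 to 1.24 (1425809_at) and -0.70 to 0.012 (1451263_a_at). Cavin1 was 0.017 with the mean of its probe sets, 0.011 with the replicate block and -0.15 to 0.067 without single arrays. Slc27a3 was -0.0053 after median centring, -0.012 after quantile normalization and -0.020 to 0.068 without single arrays. The ranges without single arrays were -0.31 to 0.019 for Cavin3, -0.46 to 1.16 for Fabp3, -0.091 to 0.23 for Lmf1, -0.051 to 0.33 for Pecam1, -0.0056 to 0.13 for Rxra and -0.071 to 0.075 for Slc27a4. Lists with other counts were these. The lipolysis list had 1 lower gene at an adjusted p under 0.1, with a trend and robust fitting and with the replicate block, and 0 to 1 without single arrays. The gene at an adjusted p under 0.1 was under a log2 value of 4 on both day 4 arrays. It passed the level filter through day 0 alone. The aquaporin list had 1 lower at an adjusted p under 0.1 and with the trend. The PPAR list had 2 higher at an adjusted p under 0.1, 1 with the trend, 1 with the level filter at 6 and 0 to 3 without single arrays. Without single arrays the oxidation list had 0 to 2 higher and the uptake list 0 to 1. The 1 lower capillary gene became 0 with array weights, the mean of probe sets, no level filter or the replicate block, and 0 to 1 without single arrays. The cause of these shifts was not tested. The labels number replicates but do not say that numbers pair the arrays. Deviations of same-numbered arrays correlated at 0.20 and 0.084. Replicate 3 exists at day 0 only, so the replicate block gave each member the same change as leaving out day 0 replicate 3. For the sign of a member these alternatives are therefore not separate. The replicate block called 481 genes against 255 and gave the Lpl probe set 1431056_a_at a limma adjusted p of 0.0509. Over all genes, 418 were called with a trend and robust fitting, 86 with array weights and 673 at an adjusted p under 0.1. Leaving out day 0 replicate 1, 2 or 3 gave 153, 162 and 40, and leaving out day 4 replicate 1 or 2 gave 10 and 317. The Cav2 probe set 1425955_at, whose lowest value was 4.77, was the member nearest the level filter, and at the other end a cap on the Fabp4, Cd36, Cav1 and Aqp1 values was not tested.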
